A study of Mus musculus with 36 samples.

Results

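The miR-181 family is a group of microRNAs (miRNAs) whose members share their 5′ end. It was followed here through small RNA-seq of the ventral and lateral prostate lobes of male mice. The members were picked by name: mmu-miR-181a-5p, mmu-miR-181a-1-3p, mmu-miR-181a-2-3p, mmu-miR-181b-5p, mmu-miR-181c-5p and mmu-miR-181d-5p (mmu, for mouse, is left out below), which are 6 of the 1963 miRNAs listed for each library. The choice was made because earlier values of these data were known, above all the high level of miR-181a-2-3p in wild-type mice at 10 weeks. The study asked how loss or mutation of Elac2, which encodes an enzyme that trims the 3′ end of tRNA precursors, bears on small RNAs of the prostate with and without a tumour transgene.

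There were 12 groups of 3 libraries, 36 in all, from mice of the strain given in the labels as C56NL/6N. Wild-type (WT) mice carried unaltered Elac2. In the KO line Elac2 was deleted on both alleles by a Cre recombinase under the probasin promoter, which is active in prostate epithelium, so the other cells of the gland kept the gene. The A537T line carried an amino acid substitution of Elac2 on both alleles in the whole body. The groups named WT-TRAMP, KO-TRAMP and A537T-TRAMP were also heterozygous for the TRAMP transgene, SV40 T antigens under a probasin promoter, which leads to prostate tumours. Each genotype was sampled at 10 and at 30 weeks, and the same WT and WT-TRAMP libraries served as controls for both Elac2 lines. Libraries are called here by the numbers they carry in the deposited tables. Their groups rest on the names of those tables, in which the mutant called Mut was read as A537T. Elac2 mRNA is not part of a small RNA table, so the genotypes could not be checked against the targeted gene.

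A miRNA is cut from a hairpin precursor, and either arm of the hairpin (5p or 3p) can be loaded into an Argonaute protein, where bases 2 to 8, the seed, pair with target mRNAs. The miR-181 hairpins lie as neighbouring pairs at 3 places in the mouse genome. The family is best known for its part in setting the sensitivity of T cell receptor signalling, and it is also expressed in brain, muscle and many epithelia. miR-181a-5p and miR-181b-5p are each made from 2 precursors on different chromosomes, whereas the 3p arms differ between precursors, so that a 3p read can be assigned to a locus.

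The mature sequences are shown because the seed and the few differing bases decide which reads can be told apart. They were taken from RefSeq on GRCm38, where all 6 members were matched, are written 5′ to 3′, and have the seed in capitals.
miR-181a-5p: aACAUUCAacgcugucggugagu
miR-181b-5p: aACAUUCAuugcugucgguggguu
miR-181c-5p: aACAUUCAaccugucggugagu
miR-181d-5p: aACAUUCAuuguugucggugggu
miR-181a-1-3p: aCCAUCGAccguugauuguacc
miR-181a-2-3p: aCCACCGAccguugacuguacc
miR-181c-3p: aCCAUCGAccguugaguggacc
The 4 members from 5p arms had the same seed. Of the 3p arms, miR-181a-1-3p shared its seed with miR-181c-3p, the other arm of the miR-181c hairpin, and miR-181a-2-3p had a seed of its own. Counting from 1 at the 5′ end, miR-181a-1-3p and miR-181a-2-3p differed over 22 bases at U5C and U16C, of which the former lies in the seed. Over 23 bases, miR-181b-5p and miR-181d-5p differed at C12U. miR-181c-5p reads as miR-181a-5p with 1 G left out. A read with a sequencing error or a trimmed end at those bases could count for the wrong member of such a pair, and the sources used here do not say how often that happened.

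Mir181a-1 (chr1:137966455-137966541, plus strand) and Mir181b-1 (chr1:137966639-137966718, plus strand) lie in an exon of the lincRNA A430106G13Rik. Mir181a-2 (chr2:38852735-38852810, plus strand) and Mir181b-2 (chr2:38853830-38853918, plus strand) lie opposite an intron of Nr6a1, which encodes a nuclear receptor. Mir181c (chr8:84178873-84178961, minus strand) and Mir181d (chr8:84178716-84178787, minus strand) lie in an intron of Nanos3, a germ cell gene, on its strand. These positions are for GRCm38 with GENCODE M21.

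Levels are given as RPM, the reads of a miRNA per 1000000 miRNA reads of the library. Depth was 4544257 to 21870210 reads in 35 libraries and 655455 reads in library 35 (A537T, 10 weeks). Some libraries stood apart in marker miRNAs of other cell types, summed over lists of 7 skeletal muscle, 4 stromal and smooth muscle and 2 neuroendocrine miRNAs. The muscle sum was 97332, 190480 and 306680 RPM in the WT libraries at 10 weeks (28, 29 and 30) and 137260, 83588 and 37229 RPM in the A537T libraries at 10 weeks (34, 35 and 36). It was 65052 RPM in KO library 32 at 10 weeks and at most 30946 RPM in every library of the other 9 groups. The neuroendocrine sum was 17811 and 14298 RPM in libraries 17 and 18 (KO-TRAMP, 30 weeks), against 2630 to 7325 RPM in the other 34 libraries. Epithelial markers, the miR-200 family and miR-205-5p, summed to 38103 to 100020.0 RPM, so all libraries held epithelial RNA. In whole tissue, fewer cells of a type and less RNA per cell cannot be told apart.

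miR-181a-5p made up most of the family in the typical library. It ran from 937 to 2522 RPM with a median of 1652 RPM, and it gave a median of 76.4% of the reads of the 6 members. miR-181b-5p followed with a median of 316 RPM (225 to 590) and 13.8% of the family, and miR-181d-5p with 122 RPM (48.3 to 984) and 5.46%. miR-181c-5p had a median of 22.6 RPM (7.92 to 58.7) and miR-181a-1-3p of 22.0 RPM (13.9 to 27.6). miR-181a-2-3p was the least abundant member, with a median of 4.36 RPM and a range of 1.09 to 70.0 RPM. The other 3p arms, except miR-181c-3p at 2.88 to 89.1 RPM, stayed low: miR-181b-1-3p reached 2.47 RPM, miR-181b-2-3p 0.851 RPM and miR-181d-3p 0.892 RPM.

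The members differed in how much they varied. Ranked by the spread of log2 levels between libraries of the same group among 298 miRNAs, with 1 for the widest spread, miR-181d-5p stood at 28 and miR-181c-5p at 39. miR-181a-5p stood at 208, and miR-181a-1-3p and miR-181b-5p were near the narrow end, at 284 and 287. miR-181a-2-3p, under a mean of 10 RPM over the series, was not ranked. When the 12 groups were ordered by their mean, the ranges of nearly all neighbours overlapped, so the order of the groups was mostly not resolved beyond the spread of 3 libraries. The neighbours without overlap were WT 30 weeks (26.8 RPM) and WT-TRAMP 10 weeks (24.7 RPM) at the top of the order of miR-181a-1-3p, and KO and A537T 10 weeks next to each other in the upper part of that of miR-181d-5p.

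**Figure D1:**
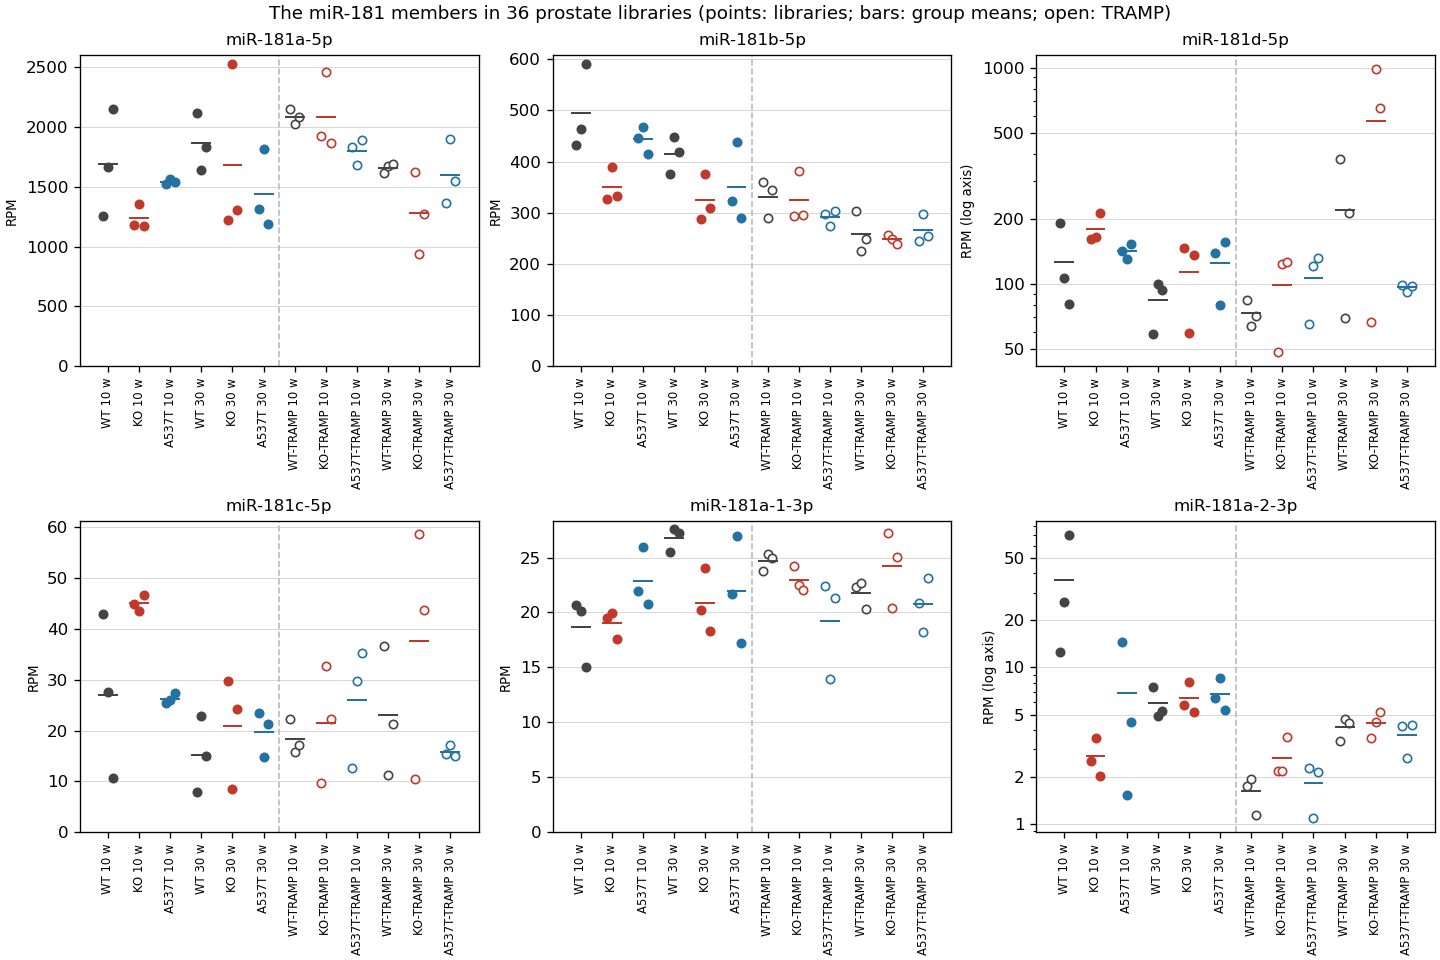
Level of each of the 6 miR-181 members in RPM in each of the 36 libraries, by group (log axes for miR-181d-5p and miR-181a-2-3p, linear axes from 0 for the others). Points are libraries, open where the mice carried TRAMP, and bars are group means. miR-181a-2-3p was at 12.6 to 70.0 RPM in the 3 WT libraries at 10 weeks and at or below 8.59 RPM in all others except library 34, and miR-181d-5p reached 984 and 651 RPM in libraries 17 and 18.

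miR-181a-2-3p, the 3p arm of the chromosome 2 precursor, was at 12.6, 26.03 and 70.0 RPM (222, 403 and 1197 reads) in the WT libraries 28, 29 and 30 at 10 weeks. All 3 WT libraries were above every other library apart from A537T library 34, at 14.6 RPM, and they were spread widely among themselves. KO libraries at 10 weeks had 2.53, 3.54 and 2.03 RPM, so the groups did not overlap. A537T libraries 35 and 36 had 1.53 and 4.50 RPM, where the value of library 35 is 1 read with a 95% Wilson interval of 0.269 to 8.64 RPM that covers counting error only. WT mice at 30 weeks had 7.51, 4.88 and 5.28 RPM, and WT-TRAMP mice at 10 weeks 1.76, 1.95 and 1.14 RPM. The 3 WT libraries had the same order in the muscle sum as in miR-181a-2-3p, and A537T library 34 had the next highest muscle sum after libraries 30 and 29. On the log2 scale the r of the arm with the muscle sum was 0.602 over the 36 libraries, which share their groups and include the WT libraries by which the arm was known. The part of muscle RNA in this result was not tested.

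The other members in the same WT libraries were spread in different ways. miR-181a-5p was at 1259, 1662 and 2147 RPM and miR-181b-5p at 433, 464 and 590 RPM in libraries 28, 29 and 30, both highest in library 30 like miR-181a-2-3p. miR-181a-1-3p was at 15.1 to 20.7 RPM in them, the lowest group mean of that arm, and miR-181c-5p was lowest in library 30, at 42.9, 27.5 and 10.6 RPM. The ratio of miR-181a-2-3p to miR-181a-1-3p was 0.608, 1.29 and 4.64 in the WT libraries at 10 weeks. It lay between 0.0458 and 0.336 in 32 libraries, all except these and library 34.

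Elac2 genotype was compared with the matching WT or WT-TRAMP group at each age. In the knockout at 10 weeks, where miR-181a-2-3p was picked for its difference, the values are a description without a test: on the log2(RPM + 1) scale miR-181a-2-3p was lower by 3.02 (SE 0.60), miR-181a-5p differed by -0.42, miR-181b-5p by -0.49, miR-181c-5p by 0.91 and miR-181d-5p by 0.59. In that comparison 0% of the 298 miRNAs tested passed an adjusted p of 0.05. In the other 7 comparisons limma called 0 of 36 member tests, where 0% of the 281 to 309 miRNAs tested passed in any of them. At an unadjusted p under 0.05 there was 1 member test, and DESeq2 and edgeR also called 0 member tests. Over all miRNAs in these 7 comparisons, 8 to 56 passed unadjusted, DESeq2 called 0 to 35 and edgeR 0 in each.

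The member that passed unadjusted was miR-181a-2-3p in A537T against WT at 10 weeks, with a log2 difference of -2.30 (SE 0.78, limma adjusted p = 0.904). That comparison uses the WT libraries by which the arm was already known, so it is not independent, and the groups overlapped through library 34. The same contrast gave an adjusted p of 0.0101 when all 36 libraries shared 1 estimate of the spread. With TRAMP, and at 30 weeks, miR-181a-2-3p differed between mutants and controls by -0.15 to 0.47 on the log2 scale, with adjusted p of 0.80 to 0.92 over all miRNAs with no filter on level. There the arm was under the 10 RPM mean that the tests required and could not be part of them.

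For the abundant arms none of the tested differences by genotype passed the threshold. The largest of miR-181b-5p was in the knockout at 30 weeks, smaller than the untested -0.49 (SE 0.20) at 10 weeks. It was at 288, 375 and 310 RPM in KO and at 375, 448 and 419 RPM in WT mice at 30 weeks, a log2 difference of -0.36 (SE 0.16, limma adjusted p = 0.335). The groups met at a value of 375 RPM. The largest tested difference of miR-181a-5p was -0.41 (SE 0.21, adjusted p = 0.326) between KO-TRAMP and WT-TRAMP at 30 weeks. Leaving out library 16 brought this to -0.60 with an adjusted p of 0.0327. Leaving out library 11 brought miR-181d-5p in A537T-TRAMP against WT-TRAMP at 30 weeks from -0.88 (adjusted p = 0.529) to -1.55 (adjusted p = 0.0302). Both fits were picked after seeing the data and are a description.

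The TRAMP transgene was compared with its absence within each genotype and age. limma called 4 of 31 member tests over the 6 comparisons, 7 passed unadjusted, DESeq2 called 9 and edgeR 3. Of the 4, miR-181a-2-3p in WT mice at 10 weeks rests on the libraries by which it was known and is given below as a description only. The share of all miRNAs called was 29% in WT, 48.6% in KO and 40.1% in A537T mice at 10 weeks, and 34.7%, 21.4% and 15.2% at 30 weeks in the same order, which is the background against which the 4 calls stand. The median log2 difference of all miRNAs lay between -0.39 and 0.27 in these comparisons and moved by up to 0.292 under TMM scaling, which bears on every small difference given here.

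A fall of miR-181b-5p with TRAMP was called by limma in 2 of the 6 comparisons. At 30 weeks it was at 304, 225 and 249 RPM in WT-TRAMP against 375, 448 and 419 RPM in WT libraries, without overlap, and fell by 0.68 on the log2 scale (SE 0.15, limma adjusted p = 0.0177). At 10 weeks it was at 297, 273 and 304 RPM in A537T-TRAMP against 447, 468 and 415 RPM in A537T libraries, again without overlap, and fell by 0.60 (SE 0.18, adjusted p = 0.0265). In the other 4 comparisons the differences were -0.57 (SE 0.22, adjusted p = 0.0930) in WT and -0.12 (SE 0.16, adjusted p = 0.555) in KO mice at 10 weeks, and -0.38 (SE 0.17, adjusted p = 0.152) in KO and -0.38 (SE 0.22, adjusted p = 0.349) in A537T mice at 30 weeks, all short of the threshold in these limma fits. WT at 10 weeks passed in 2 of 14 alternatives by limma, with muscle miRNAs taken out of the total (-0.89, adjusted p = 0.0331) and with all 36 libraries in 1 fit (0.0048). KO at 30 weeks passed in 2 of 15, with TMM (-0.60, limma adjusted p = 0.0455) and DESeq2 (-0.70, adjusted p = 0.0030). KO at 10 weeks and A537T at 30 weeks passed in 0 of 14 each. The sign in KO mice at 10 weeks depended on the scaling, at 0.10 with TMM, 0.11 with edgeR and 0.17 with DESeq2.

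Neither call on miR-181b-5p held in every setting. The WT call at 30 weeks passed in 9 of 14 alternatives (adjusted p 0.0015 to 0.0873), and was lost without library 11 (adjusted p = 0.0516), 12 (0.0873) or 21 (0.0745), with edgeR (0.0707) and with no filter (0.0511). The A537T call at 10 weeks passed in 6 of 14 (0.0043 to 0.266). It was lost without library 5, 34, 35 or 36 (adjusted p 0.0559 to 0.114), with no filter, and with TMM, edgeR and DESeq2, which put miR-181b-5p at -0.31, -0.34 and -0.36. The sum of 5 white blood cell miRNAs was 898 to 1149 RPM in WT-TRAMP and 234 to 382 RPM in WT libraries at 30 weeks, and 275 to 485 RPM in A537T-TRAMP and 303 to 365 RPM in A537T libraries at 10 weeks. The A537T libraries at 10 weeks carried the muscle signal given above. Over the 36 libraries miR-181b-5p had an r of -0.685 with the white blood cell sum and of 0.671 with the muscle sum, and the part of either cell type in these differences was not tested. With muscle miRNAs taken out of the library total, the log2 difference in A537T mice at 10 weeks was -0.73.

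miR-181a-5p, the main product of the family, rose with TRAMP in KO mice at 10 weeks. It was at 1926, 2458 and 1865 RPM in KO-TRAMP against 1178.0, 1358 and 1175 RPM in KO libraries, and no library of the former was below any of the latter. The log2 difference was 0.74 (SE 0.15, limma adjusted p = 0.0107), it passed in all 14 alternatives run (adjusted p 1.908e-11 to 0.0472), and TMM scaling gave 0.96. The KO libraries at 10 weeks had the lowest mean of miR-181a-5p of the 12 groups, 1237 ± 105 RPM (SD, n = 3). They also had stromal sums of 296780 to 352520 RPM, against 72744 to 166450 RPM in KO-TRAMP libraries, and epithelial sums of 50919 to 53125 RPM against 67260 to 88099 RPM. The r of miR-181a-5p with the stromal sum was -0.704 over the 36 libraries, and the part of tissue composition in the difference was not tested.

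In the other 5 TRAMP comparisons miR-181a-5p differed by 0.34 (SE 0.23) in WT and 0.22 (SE 0.17) in A537T mice at 10 weeks, and by -0.16 (SE 0.12) in WT, -0.35 (SE 0.35) in KO and 0.16 (SE 0.23) in A537T mice at 30 weeks. None of these passed, with limma adjusted p of 0.304 to 0.650. The sign turned at 30 weeks in WT with edgeR (0.03) and in KO without libraries 17 and 18 (0.03), a choice made after seeing the data.

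**Figure D2:**
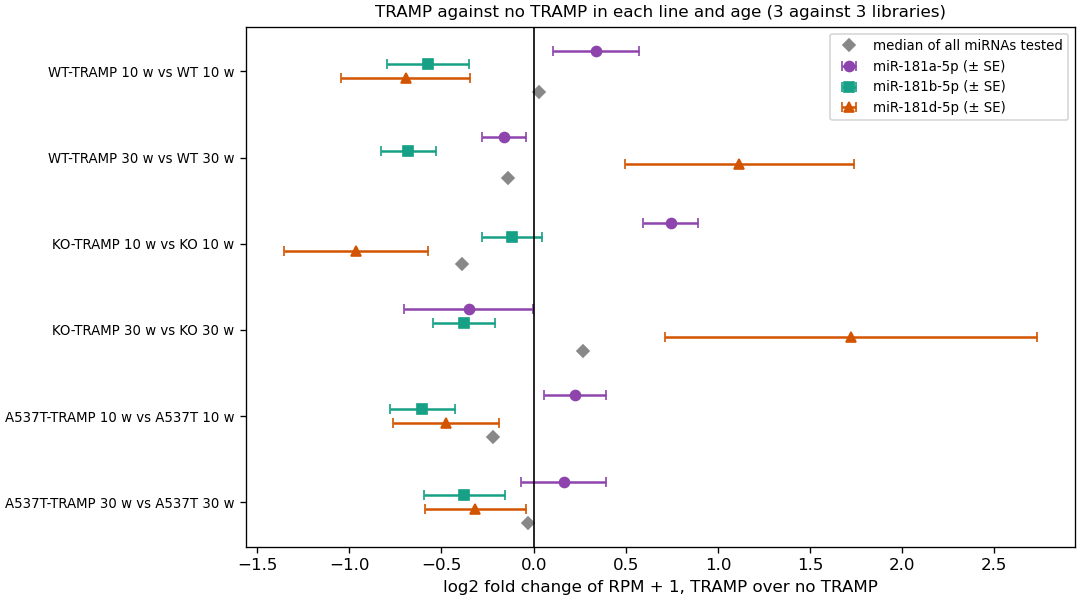
Log2 difference of miR-181a-5p, miR-181b-5p and miR-181d-5p between mice with and without TRAMP, by genotype and age, with the point for the fit of limma, the bar for its standard error (3 against 3 libraries) and a grey diamond for the median of all miRNAs tested. miR-181b-5p lies below 0 in all 6 comparisons on this scaling (above 0 in KO at 10 weeks with TMM, edgeR and DESeq2), whereas miR-181a-5p lies on both sides of 0.

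miR-181a-2-3p differed by -3.52 (SE 0.58) in WT mice at 10 weeks. This is a description of the WT libraries that made the arm known, through which alone it reached the 10 RPM mean, and without library 30 it no longer did. In the other 5 comparisons values could be had only without the filter: -0.40 in WT, -0.44 in KO and -0.72 in A537T mice at 30 weeks, and -0.02 in KO and -1.11 in A537T mice at 10 weeks. Their adjusted p were 0.296 to 0.959. Libraries without TRAMP at 30 weeks held 4.88 to 8.59 RPM. Those with TRAMP at 10 weeks held 1.09 to 3.60 RPM, levels that came from few reads: 8, 16 and 12 reads in WT-TRAMP libraries 1, 2 and 3.

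miR-181c-5p and miR-181d-5p, from the chromosome 8 pair, were lower with TRAMP in KO mice at 10 weeks by values that missed the threshold, -1.18 (SE 0.42, limma adjusted p = 0.0539) and -0.96 (SE 0.39, adjusted p = 0.0762). The former passed by limma with TMM (adjusted p = 0.0383) or a pseudocount of 10 RPM (0.0388), and with DESeq2 (0.0295). It did not pass with edgeR (0.0773), or by limma with muscle miRNAs taken out of the total (0.0526). Without library 8, miR-181c-5p was at -1.54 with an adjusted p of 0.0112. In WT mice at 10 weeks miR-181d-5p differed by -0.70 (SE 0.35, limma adjusted p = 0.175), and by -0.97 with an adjusted p of 0.0360 without library 30. With all libraries it passed by limma with TMM (-0.81, adjusted p = 0.029) or with muscle miRNAs taken out of the total (-1.01, 0.0307). It also passed with edgeR (-0.79, adjusted p = 0.0498) and DESeq2 (-0.76, adjusted p = 0.0133). The fits without library 8 or 30 were picked after seeing the data. At 30 weeks the signs were opposite in WT and KO mice, where miR-181d-5p differed by 1.12 (SE 0.62, adjusted p = 0.208) and 1.72 (SE 1.01, adjusted p = 0.256).

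These errors were wide, and a few libraries of the tumour groups were far from the others of their group. miR-181d-5p was at 66.5, 984 and 651 RPM in KO-TRAMP libraries 16, 17 and 18 at 30 weeks, and at 379, 69.8 and 213 RPM in WT-TRAMP libraries 10, 11 and 12. Libraries 16, 11 and 12 sat within the range of mice without TRAMP, 58.6 to 213 RPM, and libraries 17, 18 and 10 were above it. A537T-TRAMP libraries at 30 weeks had 98.9, 91.9 and 97.7 RPM, close together and inside the same range. In libraries 17 and 18 miR-181d-5p exceeded miR-181b-5p, at 248 and 240 RPM, and reached up to 43.7% of the family. Over the series the sum of the 6 members moved little by comparison, from 1680 to 3020 RPM.

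miR-181c-5p and miR-181c-3p, both cut from the neighbouring hairpin, were high in the same libraries. miR-181c-5p was at 10.4, 58.7 and 43.8 RPM in libraries 16, 17 and 18, and miR-181c-3p at 5.33, 89.1 and 80.5 RPM. In libraries 10, 11 and 12, miR-181c-5p was at 36.6, 11.3 and 21.3 RPM and miR-181c-3p at 30.2, 6.22 and 14.7 RPM. Over the 36 libraries the log2 level of miR-181d-5p had an r of 0.959 with miR-181c-3p and of 0.818 with miR-181c-5p, whereas its r with miR-181a-5p was -0.689. Libraries of a group are not independent points and share their depth and total, so these values describe the series.

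Libraries 17 and 18 were also those with high neuroendocrine markers, and their stromal sums were 337880 and 241510 RPM against 57319 RPM in library 16, the lowest of the series. The r of miR-181d-5p was 0.663 with the neuroendocrine and 0.653 with the stromal sum, and that of miR-181c-5p was 0.768 with the stromal sum. WT-TRAMP library 10, the highest of its group in miR-181d-5p, also had the highest neuroendocrine sum of the group, 7140.2 RPM against 4242 and 5731 RPM in libraries 11 and 12, in the order of miR-181d-5p. It had the highest stromal sum of its group as well, 194640.0 RPM. Such sums were not particular to these libraries. Stromal sums were higher still in libraries 31, 33 and 36, at 351640, 352520 and 392150 RPM, where miR-181d-5p was at most 213 RPM. KO libraries at 10 weeks had neuroendocrine sums of 7199 to 7325 RPM, above that of library 10, with miR-181d-5p at 161 to 213 RPM. The part of these cell types in the levels of the chromosome 8 arms was not tested.

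**Figure D3:**
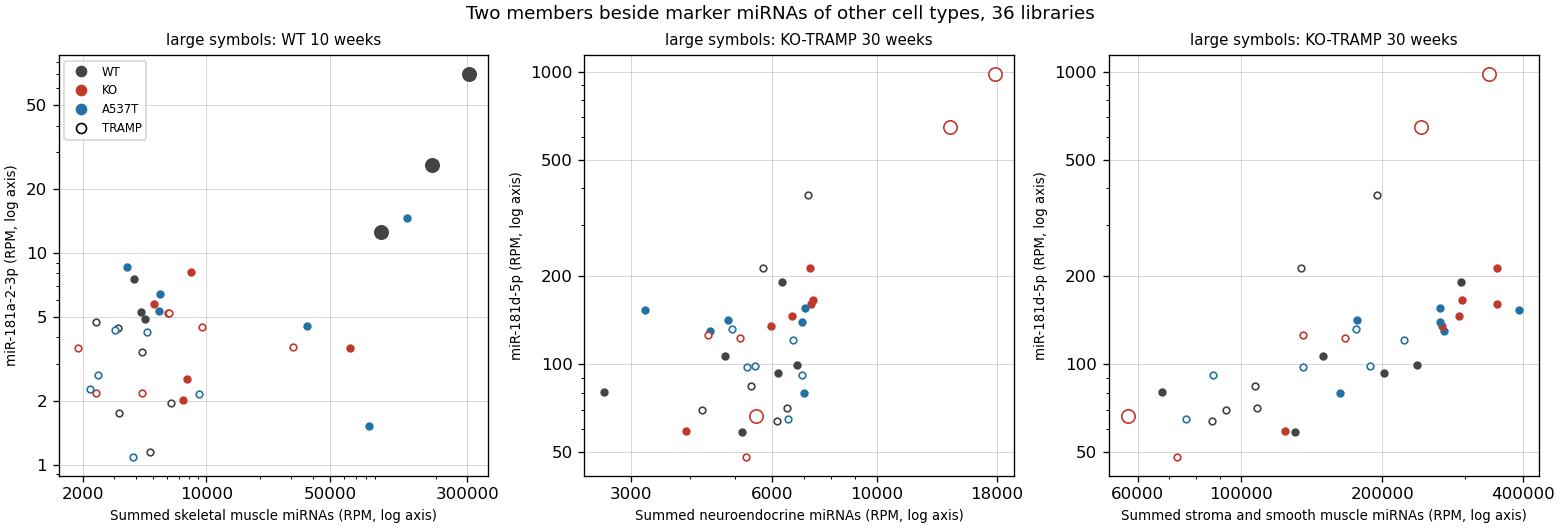
Level of miR-181a-2-3p against the summed skeletal muscle markers (left), and of miR-181d-5p against the summed neuroendocrine (middle) and stromal markers (right), all in RPM on log axes, with a point for each of the 36 libraries (open: TRAMP). Libraries 17 and 18 have the highest miR-181d-5p and the highest neuroendocrine sums, and the WT libraries at 10 weeks combine high miR-181a-2-3p with muscle sums of 97332 to 306680 RPM.

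Left without libraries 17 and 18, KO-TRAMP at 30 weeks is library 16 alone, taken to vary like the other group. The log2 differences then turned: miR-181d-5p was at -0.66 against KO, -1.41 against WT-TRAMP and -0.45 against KO-TRAMP at 10 weeks, and miR-181c-5p at -0.77, -0.93 and -0.84. Libraries 16 and 11 were the lowest of their groups in miR-181d-5p, so leaving 1 of them out keeps only the higher libraries. The fits without them were picked after seeing the data and are a description. Without library 16 instead of 17 and 18, miR-181d-5p was higher by 2.91 against KO (limma adjusted p = 0.0034) and by 3.12 against KO-TRAMP at 10 weeks (adjusted p = 0.0046). Without library 11, miR-181d-5p was higher by 1.79 in WT-TRAMP against WT at 30 weeks (adjusted p = 0.0219). With all 3 libraries in each group, DESeq2 called miR-181d-5p in both of these TRAMP comparisons, at 1.98 (adjusted p = 0.0443) in KO and 1.52 (adjusted p = 0.0137) in WT mice, and limma in neither.

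Age was compared at 30 against 10 weeks within each genotype. limma called 1 of 31 member tests, 5 passed unadjusted, DESeq2 called 6 and edgeR 0. Of the 288 to 309 miRNAs tested in each comparison, 52 to 128 passed unadjusted, DESeq2 called 19 to 110 and edgeR 0 to 79. Of all miRNAs, limma called 23.4% in WT-TRAMP, 24.7% in KO, 18.7% in A537T and 7.02% in WT mice. In KO-TRAMP and A537T-TRAMP mice it called 0.324% and 2.05%. The call was miR-181a-5p in WT-TRAMP, at 1616.0, 1670 and 1692 RPM at 30 weeks and 2153, 2022 and 2086 RPM at 10 weeks. It fell by 0.33 on the log2 scale (SE 0.10, limma adjusted p = 0.0439), and the groups did not overlap. It passed in 4 of 14 alternatives (adjusted p 0.0167 to 0.392), and leaving out any of the 6 libraries lost it (adjusted p 0.0613 to 0.193).

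In KO-TRAMP the same arm went from 1926, 2458 and 1865 RPM at 10 weeks to 1620.3, 937 and 1273 RPM at 30 weeks, again without overlap, by -0.73 (SE 0.25, limma adjusted p = 0.222). Without library 16 this was -0.92 with an adjusted p of 0.0266. With all libraries it passed with DESeq2 (-0.94, adjusted p = 0.0217) and with all 36 libraries in 1 limma fit (adjusted p = 0.0214). In the other 4 genotypes miR-181a-5p differed by -0.18 to 0.37 between ages. miR-181d-5p was higher at 30 weeks in WT-TRAMP by 1.28 (SE 0.55, limma adjusted p = 0.132), or by 1.95 without library 11 (adjusted p = 0.0013). With all libraries DESeq2 called it, at 1.65 (adjusted p = 0.0026). In KO-TRAMP miR-181d-5p was higher by 1.93 (SE 1.02, limma adjusted p = 0.306). It passed there with DESeq2 (2.29, adjusted p = 0.0325) and with all 36 libraries in 1 limma fit (adjusted p = 0.0303). DESeq2 also called miR-181b-5p in KO-TRAMP, at -0.62 (adjusted p = 0.0220). The fits without library 16 or 11 were picked after seeing the data. miR-181c-5p was lower at 30 weeks in KO mice, at 29.8, 8.51 and 24.2 RPM against 45.0, 43.5 and 46.6 RPM, by -1.24 (SE 0.43, adjusted p = 0.0761). Its groups did not overlap. Library 23 was the lowest, and leaving it out brought the log2 value to -0.72 (adjusted p = 0.0083). Without library 22 it was -1.57 (adjusted p = 0.0369). Both of these fits were picked after seeing the data.

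miR-181a-2-3p was compared between ages at low levels, under the 10 RPM mean that the tests required except in WT mice. With no filter on level, KO libraries went from 2.53, 3.54 and 2.03 RPM to 5.75, 8.09 and 5.22 RPM, without overlap. The log2 difference was 0.99 (SE 0.24, limma adjusted p = 0.0299). This is not independent, since the KO libraries at 10 weeks are part of the contrast by which the arm was picked. With the filter, 24.7% of all miRNAs were called between these groups. WT-TRAMP libraries went from 1.76, 1.95 and 1.14 RPM to 3.41, 4.72 and 4.41 RPM, also without overlap, by 0.99 (SE 0.26, adjusted p = 0.0691). KO-TRAMP and A537T-TRAMP mice differed by 0.58 and 0.74, with adjusted p of 0.475 and 0.457. In A537T mice the log2 difference was 0.35 (SE 0.56, adjusted p = 0.744), while the mean level was 6.87 RPM at 10 and 6.78 RPM at 30 weeks. WT mice differed by -2.13 (SE 0.62), a description that holds the 10-week libraries by which the arm was known.

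The differences were then set against each other as interactions, whether the effect of genotype differed by age or by TRAMP and whether that of TRAMP differed by age. Both interactions that hold the knockout at 10 weeks without TRAMP were left untested. In the other 9, limma called 1 of 48 member tests, 7 passed unadjusted, DESeq2 called 6 and edgeR 4. Of the 288 to 306 miRNAs tested in each, 11 to 112 passed unadjusted, DESeq2 called 0 to 103 and edgeR 0 to 62. By limma, the effect of TRAMP by age was called for 17.8% of all miRNAs in WT, 22.1% in KO and 10.1% in A537T mice. The remaining 6 interactions were called for 0% or 0.339%. The call was miR-181a-2-3p in WT, whose TRAMP effect was higher at 30 than at 10 weeks by 3.12 (SE 0.68). It is no independent result, since it holds the WT libraries at 10 weeks, through which alone the arm was known and passed the filter. With these limma settings no call was left among the other members, while other settings called some of them, as given below.

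Among the other members, the TRAMP effect on miR-181a-5p in KO mice was lower at 30 than at 10 weeks by 1.10 on the log2 scale (-1.10, SE 0.40, limma adjusted p = 0.0696), and that on miR-181d-5p was higher by 2.69 (SE 1.18, adjusted p = 0.118). The former passed with TMM (limma adjusted p = 0.0450), all 36 libraries in 1 limma fit (0.0143), edgeR (0.025) and DESeq2 (0.0024). The latter passed with all 36 libraries in 1 limma fit (0.0255) and with DESeq2 (0.0191). DESeq2 and edgeR also called miR-181b-5p in this interaction, at -0.82 (adjusted p = 0.0050) and -0.69 (adjusted p = 0.043). In WT mice the TRAMP effect on miR-181d-5p was higher at 30 weeks by 1.81 (SE 0.75, adjusted p = 0.127). With all libraries this difference passed with edgeR (2.31, adjusted p = 0.0308) and DESeq2 (2.28, adjusted p = 0.0034). It was 2.48 without library 11 (limma adjusted p = 0.0109), a fit picked after seeing the data. DESeq2 also called miR-181a-1-3p in WT mice, at -0.60 (adjusted p = 0.0493). In A537T mice the corresponding values were -0.06 (SE 0.28, adjusted p = 0.977) for miR-181a-5p and 0.16 (SE 0.41, adjusted p = 0.900) for miR-181d-5p.

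Ratios between members of a library do not depend on its total. There were 57 tests on the ratios miR-181a-2-3p to miR-181a-1-3p, miR-181a-2-3p to miR-181a-5p and miR-181c-5p to miR-181d-5p. In 24 the groups did not overlap, or in 19 of 48 without the comparisons that hold the WT libraries at 10 weeks. Those 48 still hold comparisons with the KO libraries at 10 weeks, part of the contrast by which miR-181a-2-3p was picked. Ratios of the miRNAs with a mean of at least 10 RPM in a comparison to the same 3 denominators had no overlap in 30.4% of cases. The backgrounds given below use the same filter. miR-181a-2-3p was under that level wherever the WT libraries at 10 weeks were not compared, so its ratios are set against better-counted miRNAs. An exact permutation test of 3 against 3 libraries, two-sided, cannot go below 0.1, so none could pass 0.05, and the adjusted value of each of the 24 was 0.238. The ratio of miR-181a-2-3p to miR-181a-1-3p, the 3p arms of the chromosome 2 and chromosome 1 precursors, was 0.0458 to 0.163 with TRAMP at 10 weeks, 0.130 to 0.218 with TRAMP at 30 weeks and 0.177 to 0.336 without TRAMP at 30 weeks. It was higher at 30 than at 10 weeks without overlap in WT-TRAMP (log2 difference 1.57), KO (1.12) and A537T-TRAMP (0.92). Ratios of other miRNAs to miR-181a-1-3p had groups without overlap for 41.8%, 57.5% and 11.3% of miRNAs in those comparisons, so a gap was common in WT-TRAMP and KO. In KO-TRAMP (0.69, background 24.7%) and A537T mice (0.59, background 37.5%) the ages overlapped, the latter at -0.30 to 1.45 with 1 library left out, and WT mice, with the 10-week libraries that made the arm known, went the other way (-2.83, background 37.6%).

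Between Elac2 mutants and controls the ratio of miR-181a-2-3p to miR-181a-1-3p was without overlap, and higher in the mutants, in 3 comparisons that do not hold the WT libraries at 10 weeks. It was 0.0895 to 0.163 in KO-TRAMP against 0.0458 to 0.0769 in WT-TRAMP libraries at 10 weeks (log2 difference 0.81, background 4.15%), and 0.0783 to 0.102 in A537T-TRAMP against the same controls (0.54, background 8.22%). These gaps rest on the 8 to 16 reads of miR-181a-2-3p in each WT-TRAMP library, whereas the backgrounds hold only miRNAs with a mean of at least 10 RPM. At 30 weeks A537T had 0.295 to 0.318 and WT 0.177 to 0.294 (0.51, background 22.9%), where the nearest libraries of the groups all but met. The groups overlapped in KO at 30 weeks (0.48, background 16.4%) and in KO-TRAMP (-0.08, background 25.3%) and A537T-TRAMP (-0.11, background 12.9%) at 30 weeks. Against the WT libraries at 10 weeks the differences were -3.47 in KO, without overlap (background 30.3%), and -2.92 in A537T, with overlap (background 15.3%), as a description.

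Set against miR-181a-5p, miR-181a-2-3p separated fewer of the mutant groups. Of the 6 comparisons without the WT libraries at 10 weeks, A537T against WT at 30 weeks had no overlap (log2 difference 0.59, background 17.7%), and the other 5 overlapped at -0.13 to 0.72, the last in KO-TRAMP at 10 weeks (background 11.8%). With TRAMP at 30 weeks this ratio was lower without overlap in WT (-0.32, background 46.4%) and A537T mice (-1.04, background 37.5%). It was higher at 30 than at 10 weeks without overlap in WT-TRAMP (1.72, background 57.5%), KO (0.88, background 50.9%), KO-TRAMP (1.49, background 59.1%) and A537T-TRAMP mice (1.24, background 40.8%). The KO value holds the KO libraries at 10 weeks, part of the contrast by which the arm was picked. In A537T mice the ages overlapped (0.64), and leaving out 1 library gave values of -0.17 to 1.47.

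The ratio of miR-181a-2-3p to miR-181a-1-3p was lower with TRAMP without overlap in KO (log2 difference -0.74) and A537T mice (-0.80) at 30 weeks, where 40.3% and 27.4% of miRNAs had a ratio to miR-181a-1-3p without overlap. It overlapped in WT mice at 30 weeks (-0.18, background 51.5%) and in KO (-0.30, background 66.7%) and A537T mice (-1.13, background 47.4%) at 10 weeks. In WT mice at 10 weeks the difference was -4.59 (background 51.3%), again from the libraries already known.

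The ratio of miR-181c-5p to miR-181d-5p, neighbours on chromosome 8, was lower at 30 than at 10 weeks in all 6 genotypes. The ages did not overlap in WT-TRAMP (log2 difference -1.11), KO (-0.54), KO-TRAMP (-1.30) and A537T-TRAMP (-0.51), and they overlapped in WT (-0.21, background 49.7%) and A537T (-0.20, background 29.2%). Among miRNAs with a mean of at least 10 RPM, the ratio to miR-181d-5p was without overlap for 33.3%, 48.4%, 7.14% and 13.4% in the former 4. This ratio overlapped in all 6 comparisons of mice with and without TRAMP and in all 8 of mutants and controls. The share of all miRNAs was not worked out singly for those comparisons, so these counts are a description.

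The ratio of miR-181a-5p to miR-181b-5p was looked at after the values were seen and was not tested. Without TRAMP it was 2.91 to 3.70 at 10 weeks and 3.67 to 6.72 at 30 weeks. With TRAMP it was 5.97 to 6.99 at 10 weeks, above every library without TRAMP of that age, and 3.78 to 7.42 at 30 weeks. The log2 differences at 10 weeks were alike in WT (0.91), KO (0.86) and A537T mice (0.83). Groups with and without TRAMP also did not overlap in A537T mice at 30 weeks (0.54), and overlapped in WT (0.52) and KO mice (0.03). A ratio to miR-181b-5p without overlap was common in the same comparisons, at 50.7%, 67% and 57.4% of miRNAs in WT, KO and A537T mice at 10 weeks and 53.2%, 48.5% and 48.3% at 30 weeks. Between Elac2 mutants and their controls the ratio of miR-181a-5p to miR-181b-5p overlapped in all 8 comparisons. The share of all miRNAs was not worked out there, so this count is a description.

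**Figure D4:**
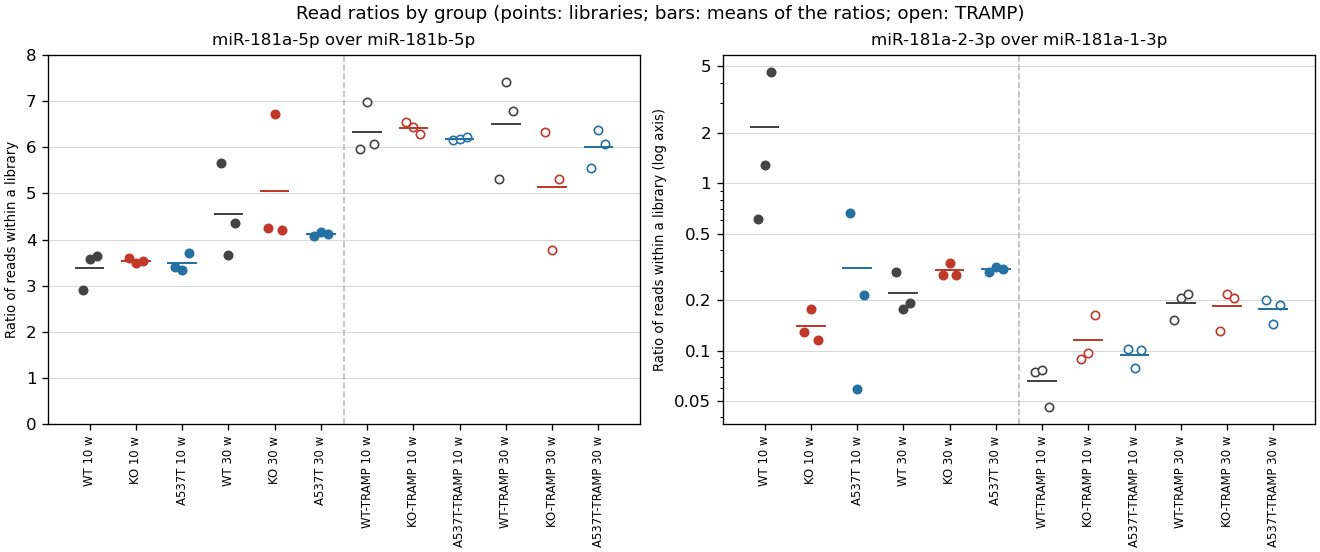
Ratios within a library of miR-181a-5p to miR-181b-5p (left, axis from 0) and of miR-181a-2-3p to miR-181a-1-3p (right, log axis), by group. Points are libraries, open where the mice carried TRAMP, and bars are means of the ratios. miR-181a-5p to miR-181b-5p was 5.97 to 6.99 in the 9 libraries with TRAMP at 10 weeks and 2.91 to 3.70 in the 9 without, and miR-181a-2-3p to miR-181a-1-3p was 0.608 to 4.64 in WT mice at 10 weeks.

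As a description over the 36 libraries and 292 miRNAs with a mean of at least 10 RPM, the patterns most like that of miR-181a-5p were those of let-7d-3p (r = 0.814), let-7b-3p (0.814) and miR-204-5p (0.802). Those most like miR-181a-2-3p were of miR-22-5p (r = 0.70), miR-378a-5p (0.695) and miR-149-5p (0.652). These r values include the WT libraries at 10 weeks by which miR-181a-2-3p was known, and none was taken without them. The r between miR-181a-2-3p and miR-181a-5p, both of which the chromosome 2 precursor can give, was -0.0163.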

How the data were processed

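Small RNA of the prostate was sequenced by the authors (TruSeq Small RNA kit, NovaSeq), reads were quantified with miRDeep2 against miRBase on GRCm38, and miRNAs of identical sequence were summed. The authors deposited 8 tables, 1 for each mutant against its control, with DESeq2-normalised counts (unit: signal) of 1963 miRNAs in 6 libraries each. Their own fold changes and s-values in further tables were not used. Whole reads were recovered from the deposited values by the step that 1 read is worth in a column (100% of values whole within 0.01), and reads of a library were identical between tables. Every column matched a group. A library shared by tables of both Elac2 lines was read as control. The labels number the replicates as separate samples and the methods speak of separate mice.

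RPM is the column divided by its sum, times 1000000. Tests used limma 3.58.1 in R 4.3.3 (lmFit, eBayes with trend) on log2(RPM + 1) with the libraries of each comparison, miRNAs with a mean of at least 10 RPM and Benjamini-Hochberg adjustment over all of them, at a threshold of 0.05. edgeR 4.0.16 and DESeq2 1.42.0 on the recovered reads were alternatives, beside the authors' normalised counts for the mutant comparisons, TMM scaling, a total without muscle miRNAs, a pseudocount of 10 RPM, no filter, a mean of at least 100 RPM, 1 fit to all 36 libraries and leaving out each library. Fits with 1 library left out that brought a member past the threshold were picked after seeing the data, so their adjusted p are a description. The scripts were tested on simulated data. Depth limits members of few reads, for which Wilson 95% intervals cover counting error only. Ratios were tested by exact permutation.

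The members, marker lists and tests were chosen with earlier results of these data known. Named beside the 6 members were the other arms of their precursors and, for miR-181a-5p and miR-181a-2-3p, the 3 miRNAs outside the family with the highest r.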

Additional observations from a re-analysis of the deposited data

Results flagged for a closer look

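The effect of TRAMP on miR-181a-2-3p in WT mice differed between ages by a test of the difference itself: it was 3.12 higher on the log2(RPM + 1) scale at 30 than at 10 weeks (SE 0.68), and limma called it. This is not an independent call: it holds the WT libraries at 10 weeks by which the arm was known, and through which alone it passed the filter on level. The levels behind it were 12.6, 26.03 and 70.0 RPM in WT and 1.76, 1.95 and 1.14 RPM in WT-TRAMP mice at 10 weeks, and 7.51, 4.88 and 5.28 RPM in WT and 3.41, 4.72 and 4.41 RPM in WT-TRAMP mice at 30 weeks. The WT libraries at 10 weeks carried muscle sums of 97332 to 306680 RPM, whose part was not tested. Groups of 3 libraries are too small for a rule on outlying samples.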

How the results depend on the processing

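No paired analysis was possible because the columns carry no replicate numbers. Member calls by limma were 0 between Elac2 mutants and controls (1 with all 36 libraries in 1 fit; 0 to 1 with a library left out), 4 for TRAMP (2 with no filter, 9 with DESeq2; 3 to 5), 1 for age (0 with TMM, 0 with edgeR, 3 with all 36 libraries, 6 with DESeq2; 0 to 3) and 1 for interactions (0 at a mean of at least 100 RPM, 2 with TMM, 3 with all 36 libraries, 4 with edgeR, 6 with DESeq2; 1 to 4). Of these, 1 TRAMP call and the interaction call were of miR-181a-2-3p with the WT libraries at 10 weeks and are not independent. The same holds for the mutant call and 1 of the 3 age calls with all 36 libraries in 1 fit, and for 1 of the 6 age calls with DESeq2. The counts for TRAMP with no filter and DESeq2 also hold such a call. So do those for interactions with TMM, all 36 libraries, edgeR and DESeq2. Ratios without overlap numbered 24 (24 to 28 with a library left out). These counts follow in part from which miRNAs and libraries enter a fit, and otherwise the cause was not tested. Signs turned for miR-181a-5p in WT-TRAMP against WT at 30 weeks with edgeR (0.033) and in KO-TRAMP against KO at 30 weeks without libraries 17 and 18 (0.026), and for miR-181b-5p in KO-TRAMP against KO at 10 weeks with TMM (0.10), edgeR (0.11) and DESeq2 (0.17). Without libraries 17 and 18, chosen after seeing the data, KO-TRAMP at 30 weeks also turned against WT-TRAMP, KO and KO-TRAMP at 10 weeks for miR-181c-5p (-0.93, -0.77 and -0.84) and for miR-181d-5p (-1.41, -0.66 and -0.45). Members below 10 RPM and library 35, with 655455 reads, were limited by depth.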

Other observations

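The arms of the miR-181c hairpin were not used in equal ratio in all libraries, a comparison looked at after the values were seen and not tested. The ratio of miR-181c-3p to miR-181c-5p was 1.52 and 1.84 in libraries 17 and 18 (KO-TRAMP, 30 weeks) and 0.513 in library 16 of the same group. Over the 34 libraries other than 17 and 18 it was 0.339 to 0.826, so the 3p arm was the more abundant arm in libraries 17 and 18 and in no other. The ratio of miR-181d-5p to miR-181b-5p, which differ at C12U, was 3.96 at its highest and at most 1.25 without libraries 17 and 18.

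Also chosen after seeing the values, the miRNAs whose levels were most like those of miR-181d-5p over the 36 libraries were miR-598-3p (r = 0.874), miR-135a-5p (0.868) and miR-10b-3p (0.868). For miR-181c-5p the closest was miR-143-5p (0.833). The r values describe the series, and libraries 17 and 18 had the highest levels of miR-181d-5p.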
